A study of Drosophila melanogaster with 6 samples.

Results

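Transcripts of 10 genes of phospholipase C and diacylglycerol signalling were followed in sorted olfactory projection neurons of Drosophila melanogaster, neurons that relay odour signals out of the antennal lobe. The genes are norpA, Plc21C, sl, Galphaq, rdgA, rdgB, Pkc53E, inaC, inaE and Arr2, out of 14138 gene rows with a symbol, and all 10 were found by symbol. They were chosen by pathway and with the measured adult and development levels of this series in view, so their differences between the groups are a description and carry no test. The adult group holds 3 libraries from flies of 5 days, and the development group holds 3 libraries from pupae 36 h after puparium formation. In both groups cells bearing a GFP marker were sorted, about 2000 per library, from untreated flies, and cDNA was made with SMART-seq2, a full-length method for small RNA amounts. The labels name neither the genotype nor the driver of the marker, and nothing in them tells if replicates come from different flies or sorts, so the spread below may be technical.

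In this pathway a G protein-coupled receptor activates the Gq alpha subunit, which switches on phospholipase C. The enzyme splits the membrane lipid phosphatidylinositol bisphosphate into inositol trisphosphate, which releases calcium from internal stores, and diacylglycerol, which activates protein kinase C. Diacylglycerol is removed by a kinase or a lipase, and lipid transfer proteins and lipid kinases rebuild the substrate at the plasma membrane. The pathway is best known in fly photoreceptors, where many of these genes were found through mutants with defective light responses, and it also acts downstream of transmitter receptors in other neurons.

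Recovered depth was 32764616 to 42217764 reads in the adult libraries and 18602612 to 34542641 in the development libraries. All 10 genes of the projection neuron marker list, among them acj6, C15, ChAT and brp, the most abundant over all 6 libraries, reached 1 CPM (reads per 1000000 reads assigned to listed genes) in every library. Development replicate 1 stood apart from its group: 6.0% of 6814 tested genes were over 1.5-fold above the mean of the other 2 libraries, against 1.2% for replicate 2 and 1.4% for replicate 3. The shares as far below were 2.1%, 2.6% and 3.3%. Adult libraries had 3.0% to 3.8% above and 3.8% to 4.6% below. Summed CPM of 5 lists of markers of other cells did not overlap between the groups either. Glia markers summed to 484 to 626 CPM in adult and 305.1 to 345 CPM in development, Kenyon cell markers to 443 to 537 and 123 to 212 CPM, and olfactory receptor neuron markers to 23.6 to 37.6 and 2.11 to 4.46 CPM. Hemocyte markers summed to 229.8 to 255.5 CPM in adult and 360.4 to 493.7 CPM in development, and muscle markers to 2.63 to 7.60 and 9.25 to 11.0 CPM. Averaged over all 6 libraries, the most abundant genes of these lists were nrv2, Dop1R1, Orco, Pxn and Mlc2. The adult sums of the glia and Kenyon cell lists were led by other genes, Gs2 with 333.5 CPM in adult and 50.9 CPM in development and Mef2 with 231.8 and 12.1 CPM. The glia genes alrm and Gat were also higher in adult, with 26.3 and 8.40 CPM and with 10.6 and 3.16 CPM. Lower in adult were nrv2 with 194.6 and 243.3 CPM, wrapper with 3.365 and 7.066 CPM, and moody with 0.542 and 2.37 CPM. The groups of Eaat1 overlapped. The glia gene repo had 0.811 to 1.34 CPM in adult and 0.753 to 0.931 CPM in development. Nearly all of the hemocyte sums came from Pxn, with 238.7 CPM in adult and 410.5 CPM in development. Of the other hemocyte genes, Hml had 0.0948 to 0.541 and 0.203 to 1.18 CPM. The groups of Cg25C overlapped, with means of 4.33 and 3.365 CPM. Orco, which defines olfactory receptor neurons, made up nearly all of the adult sums of its list. It had 36.0, 23.2 and 27.4 CPM in adult libraries and 2.60, 0.782 and 2.47 CPM in development libraries. Which cells the RNA of these marker genes came from was not tested, nor was its part in the results below. In sorted bulk libraries more cells of a type and more RNA per cell cannot be told apart.

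Across the 10 genes, the 3 adult libraries lay wholly above the 3 development libraries for norpA, inaE, rdgA, rdgB, Pkc53E, Arr2 and sl, 7 in all, and wholly below them for 1, Galphaq. The groups overlapped for Plc21C and inaC. Over all 6814 genes with at least 5 CPM in at least 3 libraries, 69.0% had groups that did not overlap, 28.8% with adult above and 40.2% with adult below. That background is given for scale, since the genes were chosen on this same contrast. The filter passed 8 of the 10, all but sl and inaC. Of these 8, adult lay wholly above for 6 and wholly below for 1. Arr2 passed through its adult libraries alone, so its groups could not overlap.

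**Figure D1:**
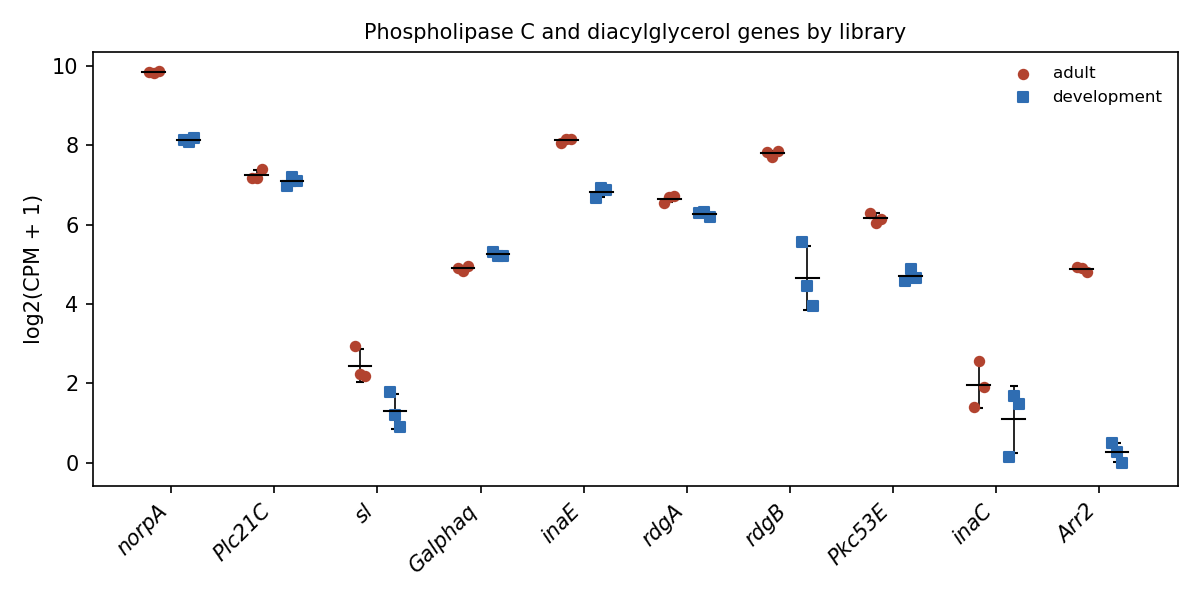
Level of each of the 10 genes on the log2(CPM + 1) scale in 3 adult (circles) and 3 development (squares) libraries, with the mean (bar) and SD (whiskers). Adult points lie above development points for 7 genes and below for Galphaq, and the development points of rdgB are spread widely.

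Among the phospholipase C genes, norpA had 924.4, 908.3 and 933.4 CPM in adult libraries, against 280.7, 272 and 289.3 CPM in development libraries. It encodes a phospholipase C of the beta class, the enzyme of phototransduction. The groups lay far apart and each was tight, with a ratio of mean CPM of 3.29 and a log2 difference (adult minus development, throughout of log2(CPM + 1)) of 1.71 ± 0.087 (SE). The gene had the smallest coefficient of variation of the 10 in both groups, 1.38% in adult and 3.09% in development.

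Plc21C, the other beta-class phospholipase C of the fly, behaved differently. It had 144.1, 143.5 and 167.5 CPM in adult libraries, against 125.1, 147.2 and 137.2 CPM in development libraries. Development replicate 2 lay above adult replicates 1 and 2, and the log2 difference was 0.15 ± 0.117 (SE).

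The remaining phospholipase C, sl (small wing), is of the gamma class, which acts below receptor tyrosine kinases. It was scarce, with 6.61, 3.69 and 3.54 CPM in adult libraries, against 2.41, 1.30 and 0.860 CPM in development libraries. Replicate 1 was the highest library of both groups, and counts were as low as 121 reads in adult and 16 reads in development. The log2 difference was 1.16 ± 0.351 (SE from these libraries alone), with no overlap of the groups. Levels of sl varied between libraries by more than read counting gives, 5.07 times the counting SD in adult and 3.23 times in development.

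Divided by exon length, norpA held 84.6% ± 0.882 of the summed phospholipase C level in adult and 65.5% ± 2.14 in development (SD, n = 3 each). Plc21C held 14.8% ± 1.02 in adult and 34.0% ± 2.29 in development. The summed level was 131 ± 3.06 CPM per kb in adult and 51.7 ± 1.19 CPM per kb in development (SD, n = 3 each). So the mix of phospholipase C transcripts leaned further towards norpA in all 3 adult libraries, 83.5% to 85.1%, than in development libraries, 63.1% to 67.2%.

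**Figure D2:**
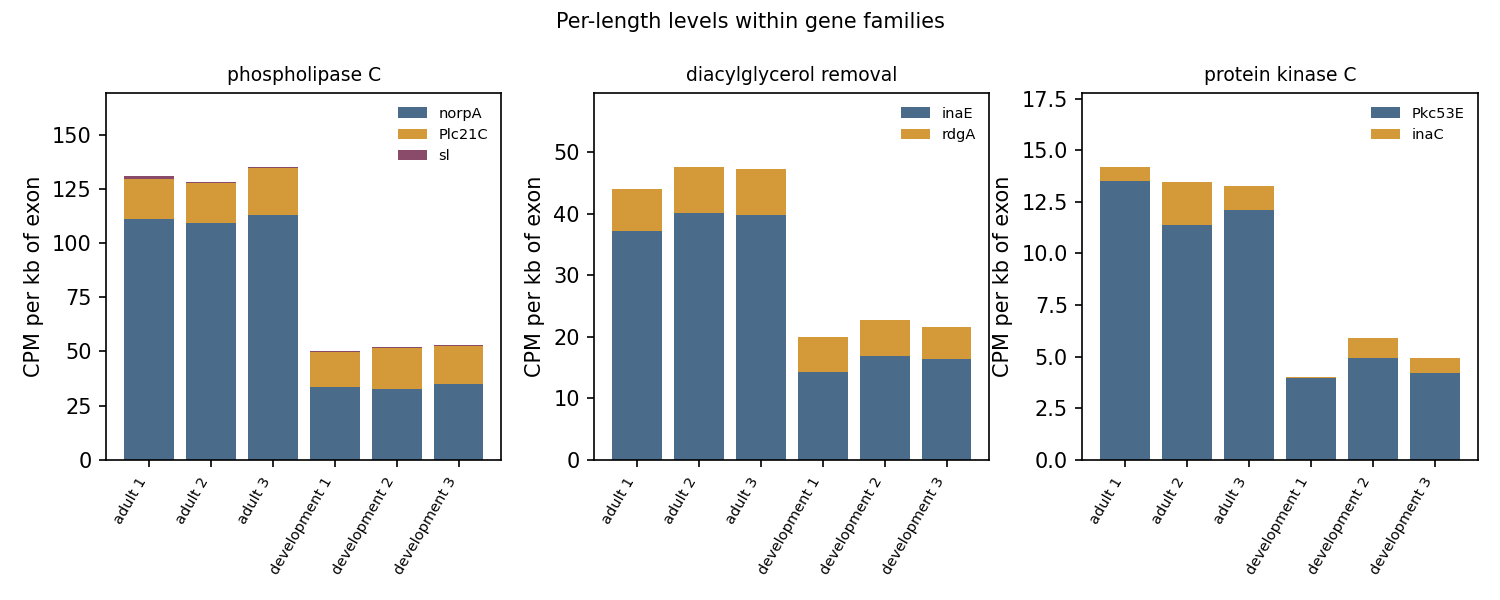
Stacked bars of CPM per kb of exon for phospholipase C, diacylglycerol-removing and protein kinase C genes in each adult (left) and development (right) library; bars start at 0. The phospholipase C bars average 131 CPM per kb in adult and 51.7 CPM per kb in development, with norpA the larger part in all 6.

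Galphaq encodes the Gq alpha subunit, which couples receptors to norpA. It had 28.9, 27.5 and 30.1 CPM in adult libraries, against 39.0, 36.2 and 36.0 CPM in development libraries. The adult libraries were lower without overlap, with a ratio of mean CPM of 0.778 and a log2 difference of -0.35 ± 0.155 (SE). The median difference of all tested genes was -0.15 on the same scale, so Galphaq lay 0.20 below that median. Of its exonic bases, 44.1% also belong to CG45086 on the same strand in the annotation used here, a gene with no row in the table under that symbol. How reads of shared exons were assigned is not stated, so the level of Galphaq is uncertain.

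Diacylglycerol is removed along separate routes by inaE, a diacylglycerol lipase, and rdgA, a diacylglycerol kinase that makes phosphatidic acid. inaE had 265.1, 285.8 and 282.7 CPM in adult libraries, against 101.7, 120.2 and 116.9 CPM in development libraries. Its groups were well separated, with a ratio of mean CPM of 2.46 and a log2 difference of 1.29 ± 0.109 (SE). rdgA had 92.8, 103.3 and 103.9 CPM in adult libraries, against 78.0, 79.1 and 71.5 CPM in development libraries. Its groups did not overlap either, but the ratio was 1.31 and the log2 difference 0.39 ± 0.122 (SE). Per exon length, inaE took 84.3% ± 0.333 of the sum of both genes in adult and 74.0% ± 2.24 in development (SD, n = 3 each).

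rdgB encodes a phosphatidylinositol transfer protein that returns the lipid substrate to the plasma membrane after signalling. It had 224.6, 208.3 and 229.8 CPM in adult libraries, against 45.9, 20.8 and 14.6 CPM in development libraries. Adult libraries were close together, while development replicate 1 was 2.59 times the mean of the other development libraries. The ratio of mean CPM was 8.15, and 12.5 without development replicate 1. The log2 difference was 3.14 ± 0.287 (SE of the fit over all tested genes), and 3.59 without that library. From the libraries of rdgB alone the SE was larger, 0.472. Spread of rdgB was 4.49 times the counting SD in adult libraries and 16.2 times in development libraries, where it was the widest of the 10 genes.

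The protein kinase C genes Pkc53E and inaC both encode kinases of the calcium- and diacylglycerol-dependent class, and inaC is known as the form of the eye. Pkc53E had 77.5, 65.2 and 69.3 CPM in adult libraries, against 22.9, 28.5 and 24.0 CPM in development libraries. The groups were well apart, with a ratio of mean CPM of 2.81 and a log2 difference of 1.46 ± 0.155 (SE). inaC had 1.63, 4.88 and 2.73 CPM in adult libraries, against 0.0963, 2.23 and 1.77 CPM in development libraries. Its groups overlapped, with a log2 difference of 0.85 ± 0.592 (SE from these libraries alone). The development value of replicate 1 rested on 3 reads, with an exact Poisson interval at 95% of 0.0199 to 0.282 CPM that covers counting error only. Per exon length, Pkc53E held 90.3% ± 5.35 of the sum of both genes in adult and 89.2% ± 8.46 in development (SD, n = 3 each).

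Arr2 encodes an arrestin that binds activated rhodopsin and ends its signal. It had 29.4, 28.9 and 26.9 CPM in adult libraries, against 0.418, 0.203 and 0 CPM in development libraries. The adult values rested on 947 to 1240 reads and the development values on 13, 7 and 0 reads, and 0 reads in development replicate 3 allows up to 0.161 CPM (3 reads). The log2 difference was 4.62 ± 0.271 (SE), with a pseudocount of 1 that understates the change of so low a gene. The ratio of mean CPM was 137, and 280 without development replicate 1, which held most of the development reads. With reads pooled over each group the ratio was 120.

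Arr2 moved together with part of the photoreceptor marker list. Of its 13 genes 12 were in the table, and their summed level was 56.4 to 68.3 CPM in adult libraries and 3.31 to 3.71 CPM in development libraries. Most of the adult sum came from Rh2, the opsin gene of the ocelli, with 46.0, 32.4 and 36.6 CPM in adult libraries and 0 reads in all development libraries. Against 3 reads over the whole development group, Rh2 was at least 1080-fold higher in adult. The transduction channel gene trp and the other arrestin gene of the eye, Arr1, were higher too, with log2 differences of 2.84 ± 0.381 and 2.82 ± 0.346 (SE). Like Arr2, these genes and Rh2 passed the filter through their adult libraries alone, so no p is given for them. The defining opsin gene of outer photoreceptors, ninaE, was low, with 1.82, 3.69 and 0.689 CPM in adult libraries and 0, 0 and 0.161 CPM in development libraries. Rh3, Rh4 and Rh6 also had 0 reads in development. Genes near 0 in both groups were trpl and Rh3. Mean inaD was lower in adult, with 0, 0 and 0.738 CPM in adult libraries and 0.418, 0.984 and 1.56 CPM in development libraries. The groups of chp and Rh5 overlapped, with means of 1.45 and 0.655 and of 0.866 and 0.565 CPM. ninaC was higher in adult at a low level, with 1.51 and 0.227 CPM. The part of photoreceptor RNA in the values of Arr2 and of the other 9 genes was not tested.

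**Figure D3:**
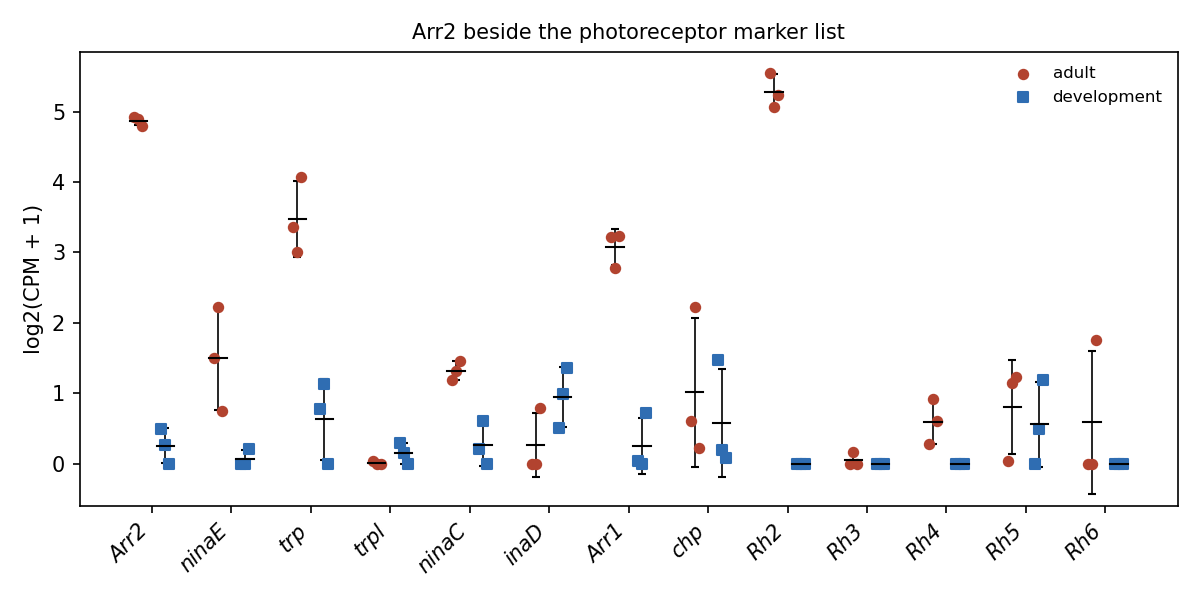
Arr2 and 12 photoreceptor markers on the log2(CPM + 1) scale in adult (circles) and development (squares) libraries, with the mean (bar) and SD (whiskers). Arr2, Rh2, trp and Arr1 lie above 2.5 in all adult libraries and below 1.5 in all development libraries, while trpl and Rh3 lie near 0 in both groups.

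Set per exon length, the adult order was norpA at 111 CPM per kb, inaE at 39.0, rdgB at 23.8, Plc21C at 19.5, Arr2 at 18.4, Pkc53E at 12.3, rdgA at 7.26, Galphaq at 4.17, inaC at 1.31 and sl at 0.813. Among neighbours in this order, Plc21C and Arr2 overlapped between libraries, as did inaC and sl. In development the order was norpA at 33.8 CPM per kb, Plc21C at 17.6, inaE at 15.8, rdgA at 5.54, Galphaq at 5.36, Pkc53E at 4.38, rdgB at 2.92, inaC at 0.581, sl at 0.268 and Arr2 at 0.134. There Plc21C overlapped with inaE, rdgA with Galphaq, Pkc53E with rdgB, inaC with sl, and sl with Arr2. norpA thus led both stages, and rdgB stood at place 3 in adult and place 7 in development.

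The genes also share features of position that do not come from the counts. Coordinates are those of BDGP6.54 and may not match the build used upstream. Of the 10 genes 5 lie on X, against 15.8% of all rows matched to that annotation. They are norpA (4322626 to 4365408), rdgA (8907068 to 9029476), rdgB (13762752 to 13779488), inaE (13783714 to 13811493) and sl (16350315 to 16356482), all on the plus strand. rdgB and inaE are close neighbours, 4225 bases apart. On 2R, Galphaq lies at 12612740 to 12623197, inaC at 16898535 to 16901575 and Pkc53E at 16924655 to 16945126, and the kinase genes are 23.1 kb apart. Plc21C lies on 2L at 305935 to 355566, and 1.92% of its exonic bases overlap other genes on the opposite strand. Arr2 lies on 3L at 8647261 to 8648936 within the span of Pex7. All 10 are protein-coding, with 1 annotated transcript for sl, inaC and Arr2 and 11 for rdgA and rdgB.

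By distance over the 6 libraries of centred log2(CPM + 1), the genes nearest to Arr2, the gene with the largest positive difference, were Tektin-C (0.369), AcCoAS (0.49) and Gpdh (0.49), among 5258 tested genes averaging 20 CPM or more. Nearest to Galphaq were CG4853 (0.083), CG3925 (0.101) and Prp3 (0.108). With 6 libraries in 2 groups, such a distance mostly reads the step between the groups.

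The other genes of the pathway were counted in 6 functional lists, 81 genes in the table, of which 67 were tested. Of these 36 were higher and 13 lower in adult at an adjusted p under 0.05 (limma, over all 6814 genes), and 18 did not pass. Over all tested genes 65.1% passed, 27.2% higher and 37.9% lower, with a median log2 difference of -0.15. The lists were chosen with earlier results of these data known, so their counts are a description and this background is given for scale. Of the genes named below, 5-HT2B, wun2 and Arr1 passed the filter through adult libraries alone and TkR99D through development libraries alone, so these had to differ.

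**Figure D4:**
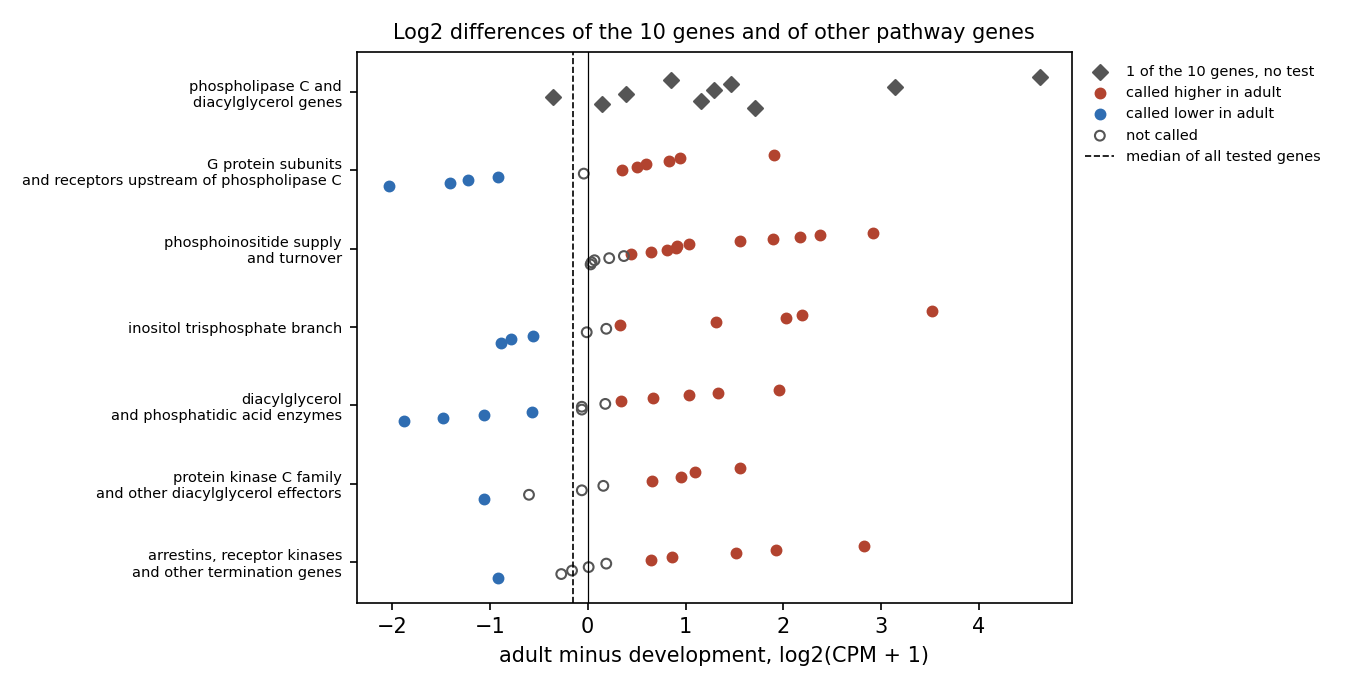
Log2 difference, adult minus development, of the 10 genes (diamonds, no test) and of the tested genes of 6 pathway lists (filled, adjusted p under 0.05; open, not passed); the dashed line is the median of all tested genes, -0.15. The phosphoinositide list has 11 genes called higher and 0 called lower.

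Genes that supply and turn over phosphoinositides were higher in 11 of 16 tested cases (68.8%) and lower in 0, with a median log2 difference of 0.86. Among the 5 that did not pass were PIP4K, fwd, vib and Pi3K59F. All 11 that were higher are named here in the order of the lipid cycle. CdsA, which makes the activated lipid used for phosphatidylinositol synthesis, had 427.4 ± 9.86 CPM in adult and 207.7 ± 24.5 CPM in development. Pis, the phosphatidylinositol synthase gene, had 461.2 ± 14.3 CPM in adult and 248.2 ± 32.0 CPM in development (SD, n = 3 each). Both steps act upstream of the lipid kinases.

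PI4KIIIalpha, the kinase that starts phosphoinositide synthesis at the plasma membrane, had 135.6, 124.3 and 146.1 CPM in adult libraries, against 27.0, 23.7 and 25.6 CPM in development libraries. Its log2 difference was 2.37 ± 0.137 (SE; limma, adjusted p = 5.35e-09). stmA, the EFR3 protein that anchors this kinase, had 750.1, 813.7 and 754.2 CPM in adult libraries, against 110.1, 94.2 and 100.1 CPM in development libraries. It had the largest difference of the list, 2.92 ± 0.101 (SE; limma, adjusted p = 3.96e-11). The kinase genes Pi4KIIalpha and PIP5K59B had differences of 0.81 ± 0.239 and 0.91 ± 0.149 (SE). PIP5K59B, like rdgB, was highest of its group in development replicate 1, with 953.4, 599.6 and 592.1 CPM in the development libraries.

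rdgBbeta, a relative of rdgB in the phosphatidylinositol transfer protein family, had 138.8 ± 16.7 CPM in adult and 36.6 ± 4.67 CPM in development (SD, n = 3 each). The phosphatase genes CG10426 (INPP5E in RefSeq), Synj, Ocrl and Sac1, which remove phosphates from these lipids, had log2 differences of 2.17, 1.56, 0.65 and 0.44. The genes higher in adult thus included both kinases and phosphatases of the lipid cycle. The kinase genes fwd, PIP4K and Pi3K59F did not pass.

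**Figure D5:**
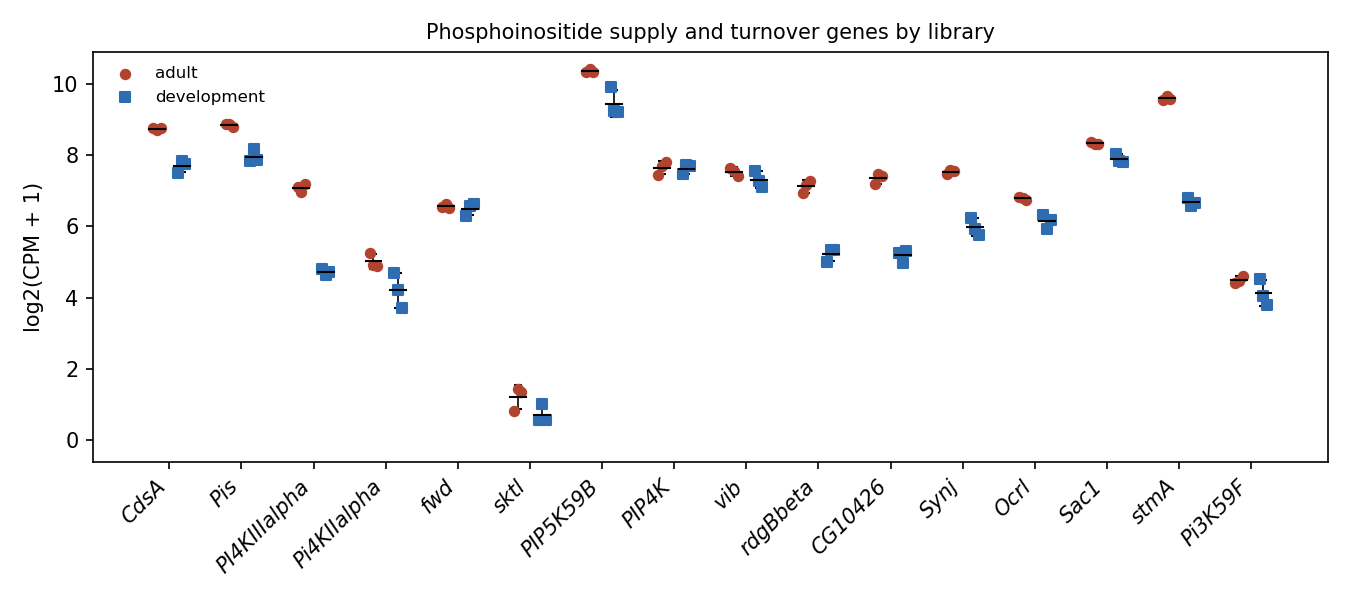
Levels of 16 of the 17 phosphoinositide supply and turnover genes in the table, log2(CPM + 1), in adult (circles) and development (squares) libraries, with the mean (bar) and SD (whiskers). The gap between the groups is widest for stmA, with a log2 difference of 2.92.

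In the inositol trisphosphate branch 5 of 10 tested genes (50%) were higher and 3 lower, with a median log2 difference of 0.26. Inos, which makes inositol phosphate from glucose phosphate, had 419, 467.2 and 487.1 CPM in adult libraries, against 50.2, 33.0 and 35.6 CPM in development libraries. Its difference of 3.52 ± 0.149 (SE; limma, adjusted p = 2.62e-10) was larger than that of the 9 other tested genes of this list. Ipp, a phosphatase that recycles inositol phosphates, had 444.8 ± 25.7 CPM in adult and 96.9 ± 8.10 CPM in development (SD, n = 3 each). The calcium store sensor gene Stim was lower, with 53.8 ± 4.71 CPM in adult and 93.2 ± 11.0 CPM in development. Ipk2, an inositol phosphate kinase gene, fell by 0.89 on the log2 scale (SE 0.234).

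Diacylglycerol and phosphatidic acid enzymes moved both ways: 5 of 12 tested genes (41.7%) were higher and 4 lower, with a median log2 difference of 0.06. CG34384, a diacylglycerol kinase gene, had 128.9 ± 28.0 CPM in adult and 32.3 ± 5.73 CPM in development (SD, n = 3 each). wun2, a lipid phosphate phosphatase gene, was higher at a low level, 7.56 ± 1.76 CPM in adult and 2.39 ± 0.542 CPM in development. The acyltransferase genes CG4729 (Agpat3 in RefSeq) and CG3812 (Agpat1), which make phosphatidic acid anew, were lower, with differences of -1.88 ± 0.120 and -1.48 ± 0.225 (SE; limma, adjusted p = 1.47e-08 and 6.01e-05). Their relative fu12 (Agpat2) went the other way, with 52.9 CPM in adult and 25.2 CPM in development and a difference of 1.04 ± 0.190 (SE; limma, adjusted p = 0.00028).

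Of the remaining protein kinase C genes and diacylglycerol effectors, 4 of 8 tested (50%) were higher and 1 was lower, with a median log2 difference of 0.41. Pkc98E, a diacylglycerol-dependent and calcium-independent kinase gene, had 563.4, 610.8 and 601.2 CPM in adult libraries, against 283, 172.3 and 165.2 CPM in development libraries. Its difference of 1.56 ± 0.165 (SE; limma, adjusted p = 1.84e-06) compares with 1.46 for Pkc53E, and its development replicate 1 was again the highest. Pkn, a kinase gene related to the protein kinase C family, had 21.7 ± 8.51 CPM in adult and 9.15 ± 1.28 CPM in development (SD, n = 3 each). The lower gene was Rack1, a scaffold that binds active protein kinase C and is also part of the ribosome, with 161.1 ± 9.26 CPM in adult and 339.2 ± 44.7 CPM in development.

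Upstream, G protein subunits and receptors that act on this pathway were higher in 6 of 11 tested cases (54.5%) and lower in 4, with a median log2 difference of 0.35. Gbeta13F, a widely used beta subunit gene, had 810.1 ± 28.8 CPM in adult and 2162 ± 289 CPM in development (SD, n = 3 each). Gbeta5, a beta subunit that pairs with RGS proteins, went the other way, with 610.5 ± 16.5 CPM in adult and 317.1 ± 14.9 CPM in development. The serotonin receptor gene 5-HT2B was higher by 1.90 ± 0.327, and the tachykinin receptor gene TkR99D fell by 2.03 on the log2 scale (SE 0.263).

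Arrestins, receptor kinases and other genes that end signalling were higher in 5 of 10 tested cases (50%) and lower in 1, with a median log2 difference of 0.42. Arr1, given above with Arr2, had 7.53 ± 1.42 CPM in adult and 0.226 ± 0.364 CPM in development (SD, n = 3 each). rdgC, a calcium-regulated phosphatase gene known for acting on rhodopsin, had 48.5 ± 5.30 CPM in adult and 12.1 ± 1.71 CPM in development. The receptor kinase gene Gprk2 was lower, with 57.7 ± 7.63 CPM in adult and 109.3 ± 6.08 CPM in development.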

How the data were processed

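The deposited table holds log2 values, which their sums show to be log2(CPM + 1) made by the authors. STAR 2.4.2a and HTSeq 0.7.1 stand in the submitters' processing notes. Genome build, annotation, strand use and counting mode were not stated there. CPM was taken as 2 to the value minus 1, and whole reads were recovered from the step of each library (100.0% of values above 0 whole within 0.1 read), 18602612 to 42217764 per library. Counting intervals and floors cover counting error only. The 1 row with no symbol was left out.

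Genes with at least 5 CPM in at least 3 of 6 libraries, 6814, were tested with limma 3.58.1 in R 4.3.3 (lmFit, eBayes with trend, two-sided, group as the only term, Benjamini-Hochberg over all genes tested, threshold 0.05); the code was tested on simulated data. SEs of the 8 genes that passed come from that fit. Exon lengths and overlaps come from Ensembl release 115, whose gene models may differ from those counted. Replicates of both groups varied beyond counting error (chi-square per degree of freedom at least 20.58). Deviations of same-numbered libraries had correlations of -0.028, 0.042 and -0.011, and those of differently numbered libraries -0.043 to 0.041. Such values cannot tell if same-numbered libraries share a sort or day, which is not stated. The main fit did not pair them.

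The 10 genes and the 6 pathway and 7 marker lists were chosen with earlier results of these data known. Named pathway genes are, in each list, up to 2 with the largest rise and up to 2 with the largest fall among those passing. Named too are the most abundant gene of each marker list, the 3 nearest genes of 2 of the 10 genes, and others named as a whole list. ChAT, acj6, C15, ninaE, trp, trpl, Rh3, Rh4, Rh6, inaD, repo, Hml, Cg25C, Gs2, Mef2, alrm, Gat, wrapper, moody, Eaat1, fu12 and the genes behind small counts were named after their values were seen. So were rut, sNPF, prt, ey, dac, ninaC, chp and Rh5. Of listed genes, 1 pathway and 2 marker genes had no row, and 1 pathway gene is counted but not reported by name here. Alternatives covered pseudocount, filter, scaling, replicate block, limma voom on recovered reads, and leaving out each library.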

Additional observations from a re-analysis of the deposited data

How the results depend on the processing

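Over 14 alternative settings the 20 pathway genes named for the largest rises and falls of their lists kept their direction and passed the threshold. Phosphoinositide genes called higher numbered 11, against 10 with no filter and up to 13 in other settings. The 8 genes of the 10 that passed the filter kept their sign (sl and inaC were fitted in 2 settings with a looser filter or none). Arr2, however, ranged from 2.68 with a pseudocount of 5 to 7.84 with voom on recovered reads (6.08 with a pseudocount of 0.25). Genes passing numbered 4439, with 4043 to 4500 when 1 library was left out. They numbered 4428 with the replicate block, which rests on the replicate number alone. Calls that are higher and lower in adult numbered 1856 and 2583, against 2233 and 2170 with libraries centred on a median log ratio of 0; that scaling and voom moved the median difference to -0.002 and -0.032, and put Plc21C at 0.30 and 0.28 and Galphaq at -0.20 and -0.23. Genes called lower among the remaining protein kinase C genes and effectors numbered 2, against 1, with a pseudocount of 5 and with the replicate block; the added gene was RhoGAP5A (adjusted p = 0.0526 as reported). That count was 1 to 2 when 1 library was left out, and that of arrestins and other ending genes was 1 to 2, with Gprk1 added without development replicate 1. The cause was not tested. Few reads limit sl, inaC and the development level of Arr2. Levels of sl and inaC also varied between libraries beyond counting error. The spread was 5.07 and 5.8 times the counting SD in adult and 3.23 and 5.43 times in development. The planned count test on recovered reads was not run, and limma voom on those reads was used in its place. Comparisons of protein and promoter sequence were not made here.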
